A study of Mus musculus with 4 samples.

Results

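Open chromatin was profiled by ATAC-seq in motor neurons of the cervical spinal cord of control mouse embryos at embryonic day 12.5 (e12.5). In ATAC-seq the transposase Tn5 inserts sequencing adapters into DNA that is not covered by nucleosomes, so places with many inserted tags are read as open. The 2 control libraries, control 1 and control 2, belong to a series of 4 libraries, the others being from littermates deficient for the homeodomain factor Hoxa5, which were not used here. Every embryo of the series carried the ChAT::GFP transgene, in which regulatory DNA of the acetylcholine-synthesising enzyme drives a green fluorescent protein, and GFP-positive cells were sorted. Any cholinergic cell of the tissue can carry the reporter. The labels give the controls' genotype only as control, and call the libraries biological replicates. The number of embryos per library is not stated. The authors deposited a peak list for each library. Control intervals with at least 1 bp in common were joined into regions, and a region was kept when both lists had a peak in it. This gave 80429 regions shared by both controls, of 142708 regions with a peak in either control and 199576 with a peak in any of the 4 libraries.

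Spinal motor neurons are the cholinergic cells that drive muscle. They arise from Olig2-expressing progenitors, leave the cell cycle and switch on the homeodomain factors Mnx1, Isl1, Isl2 and Lhx3, which act on the genes of acetylcholine synthesis and release. Promoters rich in CpG dinucleotides tend to be open in most cell types, whereas elements far from promoters differ more between cell types. Several measures describe a region below. Tags are the number of extended reads stacked at its strongest summit, recovered from the deposited fold and p-value. Fold is that stack over the local background. The percentile is the place of its strongest summit among all summits of 1 list, ranked by the deposited −log10 p, and strength is the lower of the 2 percentiles. A gene end is the first or last base of a protein-coding gene, with 1 kb on each side. In a bulk sample, more open cells and more openness per cell cannot be told apart.

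The 300 bases around a transcription start (250 before it and 50 after it, from RefSeq, GRCm38.p6, the coordinates of mm10) are printed first for the 4 genes that define the cell type, because their ends differed widely in strength. Choline acetyltransferase (Chat) and the vesicular acetylcholine transporter (Slc18a3) form 1 locus, in which the Slc18a3 gene lies within Chat. Capitals mark every match to the GC box GGGCGG, the CCAAT box CCAAT and the ETS site CCGGAAG, on either strand, counted independently so that matches may overlap.
Chat chr14:32465860-32466159, minus strand: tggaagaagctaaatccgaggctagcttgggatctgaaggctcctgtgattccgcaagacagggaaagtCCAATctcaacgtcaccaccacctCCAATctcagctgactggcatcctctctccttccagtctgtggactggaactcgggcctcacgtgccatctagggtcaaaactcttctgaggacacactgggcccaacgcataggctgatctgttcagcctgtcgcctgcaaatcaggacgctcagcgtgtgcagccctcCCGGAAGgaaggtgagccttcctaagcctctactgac
Slc18a3 chr14:32464801-32465100, minus strand: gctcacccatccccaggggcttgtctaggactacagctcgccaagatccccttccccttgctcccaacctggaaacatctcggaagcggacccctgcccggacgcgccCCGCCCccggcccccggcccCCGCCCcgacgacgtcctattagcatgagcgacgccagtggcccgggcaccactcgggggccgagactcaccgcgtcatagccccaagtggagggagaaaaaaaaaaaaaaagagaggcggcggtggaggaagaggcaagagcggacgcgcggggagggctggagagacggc
Isl1 chr13:116309639-116309938, minus strand: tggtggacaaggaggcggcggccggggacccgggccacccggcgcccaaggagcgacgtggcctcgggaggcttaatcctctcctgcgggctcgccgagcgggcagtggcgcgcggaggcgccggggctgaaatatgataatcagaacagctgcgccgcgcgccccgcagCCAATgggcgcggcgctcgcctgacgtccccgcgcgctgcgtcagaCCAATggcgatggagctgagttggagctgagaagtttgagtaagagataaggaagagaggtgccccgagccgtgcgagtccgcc
Mnx1 chr5:29478421-29478720, minus strand: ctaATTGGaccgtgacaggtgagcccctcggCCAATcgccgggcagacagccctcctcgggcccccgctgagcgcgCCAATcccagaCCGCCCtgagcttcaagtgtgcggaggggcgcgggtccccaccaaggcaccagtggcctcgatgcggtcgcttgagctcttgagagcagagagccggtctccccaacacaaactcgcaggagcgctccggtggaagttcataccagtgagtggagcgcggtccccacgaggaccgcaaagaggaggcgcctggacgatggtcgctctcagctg
A shared region overlapped the windows of Slc18a3, Isl1 and Mnx1. None overlapped the window of Chat, from which the nearest shared region was 0.4 kb away, at Slc18a3.

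The windows of 3 genes among the 12 strongest shared regions, and that of albumin (Alb), a liver gene, show the other extremes.
Hjurp chr1:88277530-88277829, minus strand: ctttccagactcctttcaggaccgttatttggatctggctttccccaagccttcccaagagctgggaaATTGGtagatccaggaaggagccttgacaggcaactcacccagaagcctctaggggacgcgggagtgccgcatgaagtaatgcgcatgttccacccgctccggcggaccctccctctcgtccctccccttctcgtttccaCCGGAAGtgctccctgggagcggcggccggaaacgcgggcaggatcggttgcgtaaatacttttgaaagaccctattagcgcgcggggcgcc
Pja2 chr17:64331834-64332133, minus strand: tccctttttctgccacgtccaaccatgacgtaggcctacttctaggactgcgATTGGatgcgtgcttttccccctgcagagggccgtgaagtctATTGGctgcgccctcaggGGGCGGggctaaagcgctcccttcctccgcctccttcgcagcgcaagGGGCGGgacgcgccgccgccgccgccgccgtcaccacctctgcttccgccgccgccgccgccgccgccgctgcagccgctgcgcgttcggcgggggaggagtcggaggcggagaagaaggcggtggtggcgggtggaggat
Prmt5 chr14:54517421-54517720, minus strand: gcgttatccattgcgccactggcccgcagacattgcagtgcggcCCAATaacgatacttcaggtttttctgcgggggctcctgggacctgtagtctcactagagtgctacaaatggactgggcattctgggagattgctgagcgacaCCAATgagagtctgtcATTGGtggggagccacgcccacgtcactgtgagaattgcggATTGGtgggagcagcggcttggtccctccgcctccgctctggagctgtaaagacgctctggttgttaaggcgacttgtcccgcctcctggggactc
Alb chr5:90460620-90460919, plus strand: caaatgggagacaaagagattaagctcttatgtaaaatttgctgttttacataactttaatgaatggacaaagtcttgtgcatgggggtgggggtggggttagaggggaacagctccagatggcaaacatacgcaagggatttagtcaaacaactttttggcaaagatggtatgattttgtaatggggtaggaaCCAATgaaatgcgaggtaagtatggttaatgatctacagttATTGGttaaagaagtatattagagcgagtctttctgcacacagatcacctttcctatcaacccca
Hjurp loads the centromeric histone variant, Pja2 is a ubiquitin ligase and Prmt5 is an arginine methyltransferase. The window of Pja2 held 2 GC boxes and 2 CCAAT boxes, that of Prmt5 held 4 CCAAT boxes, and that of Hjurp held 1 CCAAT box and 1 ETS site. The Alb window held 2 CCAAT boxes, in a window that no shared region overlapped. Its G+C content was 40%, against 59.7% for Hjurp, 70% for Pja2 and 58% for Prmt5, and the nearest shared region was 6.38 kb away.

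The 2 lists were of like size. Control 1 held 165866 summits in 115089 intervals covering 52.3 Mb, and control 2 held 163016 summits in 113505 intervals covering 50.9 Mb. The lowest background, which scales with depth, was 5.43 tags in control 1 and 4.39 tags in control 2. Of the regions of control 1, 71.3% were shared, and of those of control 2, 72.9%. Sharing followed strength: 23.1% of control 1 regions in its lowest 10 percentiles were shared, and 26.1% for control 2. Above percentile 90, every region of control 1 was shared, and all but 3 of control 2. Regions of 1 control only sat at a median percentile of 18.2 in control 1 and 15.4 in control 2. Across the 80429 shared regions, the logarithm of the tags correlated between the controls with Pearson's r = 0.958 (Spearman's rho = 0.918). These points share 2 libraries and are a description. The median ratio of tags, control 2 over control 1, was 0.837, in the direction of the lower background of control 2. The summits of the 2 controls were within 50 bp of each other in 74.3% of shared regions.

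**Figure D1:**
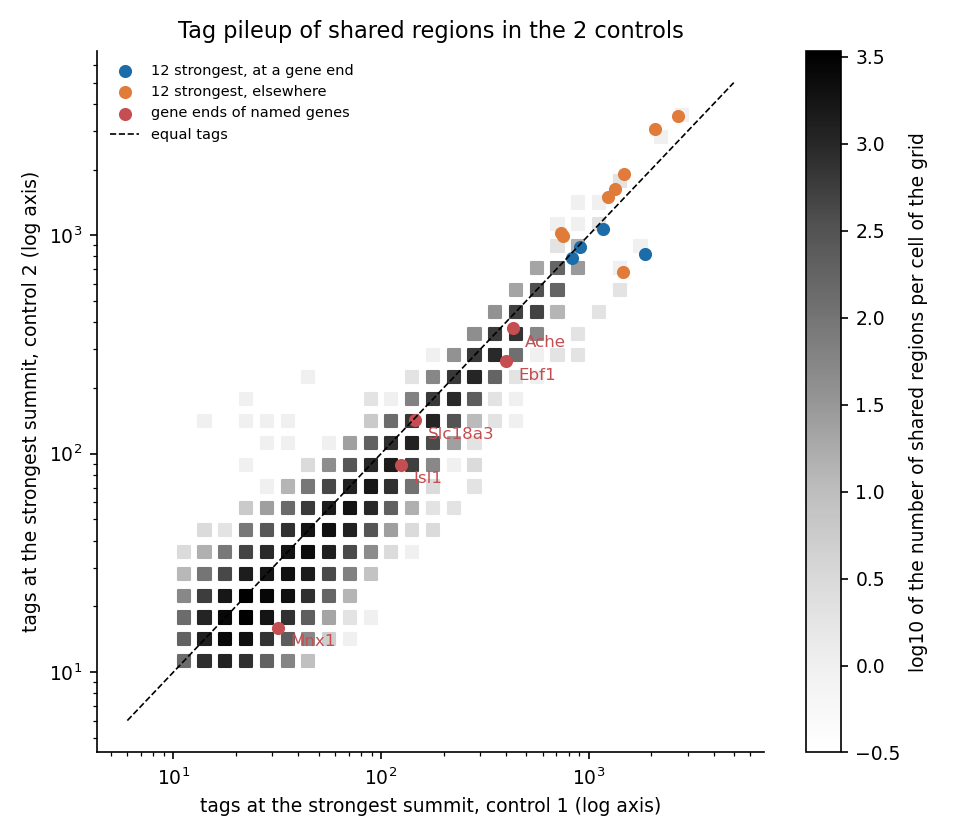
Tags at the strongest summit of each shared region in control 1 (x axis) and control 2 (y axis), both log axes; grey squares count regions, and dots mark the 12 strongest regions and the gene ends of Ache, Ebf1, Slc18a3, Isl1 and Mnx1. Most regions lie near the dashed line of equal tags. Mnx1 lies at 32 and 16 tags, percentile 40.7 in control 1 and 3.17 in control 2. The strongest regions away from gene ends reach 2699 and 3534 tags.

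The 4 genes that define the cell type had open regions of very different strength. At Isl1, a LIM-homeodomain factor required for motor neurons, the region over the start (chr13:116309418-116310290) had 125 tags in control 1 and 89 tags in control 2, at percentiles 90.1 and 87.6. It was the strongest of 13 regions assigned to Isl1. None lay inside the gene body, and the next strongest were 188 kb upstream (102 and 78 tags) and 205 kb upstream (79 and 83 tags) of the start. In control 1 both distal regions had fewer tags than the start, and in control 2 all 3 lay between 78 and 89 tags.

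The Slc18a3 end lay in a region of 1337 bp (chr14:32464123-32465459) with 146 and 142 tags, at percentiles 81.4 and 87.0, and 5 and 3 summits. Slc18a3 loads acetylcholine into vesicles. Its local background, 36.1 and 25.5 tags, was several times the lowest background of each library, and the fold was 3.96 and 5.39. Chat had 11 further regions, of which 9 were in its body. The strongest, chr14:32409417-32410635, lay 1.21 kb from the end opposite to the start, with 165 and 144 tags. The next, 7.08 kb upstream of the start, had 182 and 113 tags. Both were over percentile 90 in both controls.

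Mnx1, the homeodomain factor used most often to mark motor neurons, had a weak region at its start. This region (chr5:29477749-29478888) had 32 tags in control 1 and 16 tags in control 2, at percentiles 40.7 and 3.17. The controls disagreed on its rank, and it passed in control 2 only near the lowest values of the list. A region inside the Mnx1 body, 1.55 kb from the end opposite to the start, was stronger, with 64 and 44 tags at percentiles 74.0 and 68.3. All 4 markers had a shared region within 1 kb of an end, which held for 64.7% of all 21887 protein-coding genes. Chat and Slc18a3 were counted through the same region.

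**Figure D2:**
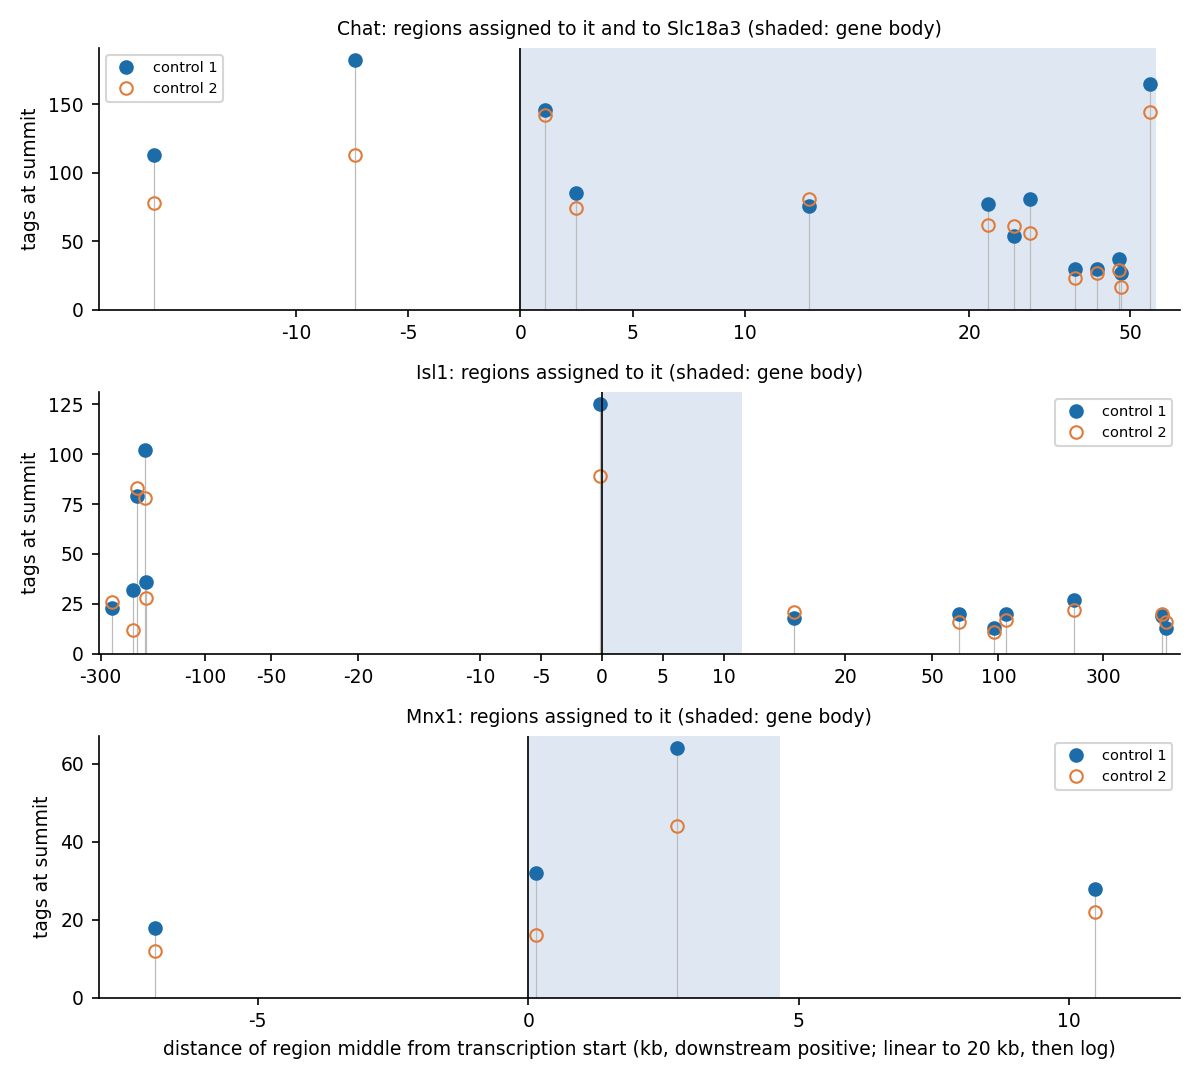
Tags at the strongest summit of each region assigned to Chat with Slc18a3 (top), Isl1 (middle) and Mnx1 (bottom), against the distance from the transcription start in kb, with filled dots for control 1, open dots for control 2 and the gene body shaded. The Isl1 body holds no shared region, while 9 of the 11 Chat regions lie in the body.

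The other cholinergic genes all had a shared region at an end, as did 64.7% of all protein-coding genes. Ache, the acetylcholinesterase that ends transmission, had the strongest of them, with 430 and 377 tags, fold 16.5 and 18.2, and a strength of 98.6. That region lay at the end of Ache with the higher coordinate. At the other end of Ache the strongest region had 98 and 89 tags and a strength of 81.0. The start was not told apart from the opposite end for these genes. Prima1, which anchors the enzyme to membranes, had 193 and 168 tags and a strength of 93.5. Slc10a4, a vesicular transporter found in cholinergic neurons, had 141 and 127 tags and a strength of 91.2. Slc5a7, the choline transporter, had 44 and 18 tags and a strength of 40.3. Of the 6 cholinergic genes, 1 exceeded strength 95 at an end, a level that 30.2% of all protein-coding genes reached.

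Among 19 motor neuron identity genes, 17 had a shared region at an end, beside 64.7% of all protein-coding genes. The median strength of those 17 ends was 80.8, beside 94.5 over the 14150 genes with such a region. Each value is that of the strongest region at either end, be it the start or the opposite end. Only Ebf1 and Onecut2 exceeded 95, a level that 30.2% of all protein-coding genes exceeded at an end. Ebf1, a helix-loop-helix factor of early neurons, had 399 and 266 tags at its end and 50 regions in all. Onecut2 had 382 and 319 tags. Its relative Onecut1 had 132 and 125 tags, and Onecut3 had 61 and 44. The LIM-homeodomain genes were lower: Lhx3 had 42 and 37 tags (strength 62.7), Lhx4 had 23 and 32 (45.4), and Isl2 had 33 and 25 (38.5). Isl2 held a stronger region in its body, chr9:55540813-55541332, with 171 and 114 tags. Slit2 and Prph, a repulsive guidance ligand and a peripheral nerve intermediate filament, had a region at an end in control 1 only.

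Several identity genes carried many regions away from their ends. Slit3, the other Slit ligand in the list, had 69 regions, 62 of them in its body (91 and 88 in the lists of control 1 and control 2). Ebf2, Ebf3 and Mecom had 35 each. In the 129 kb of Ebf3 there were 33 body regions, or 25.6 per 100 kb, and in the 390 kb of Ebf1 there were 37, or 9.49 per 100 kb. Over the whole span of the assembled chromosomes the density was 2.99 per 100 kb. Nkx6-1, a homeodomain factor of ventral progenitors and motor neurons, had 22 regions, of which 1 lay in its 5.53 kb body. Its end had 115 and 82 tags, beside 46 and 36 for Nkx6-2. Among other genes of the list, Ret, the receptor for glial cell line-derived neurotrophic factor, had 103 and 74 tags at its end, and Mecom had 107 and 85.

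**Figure D3:**
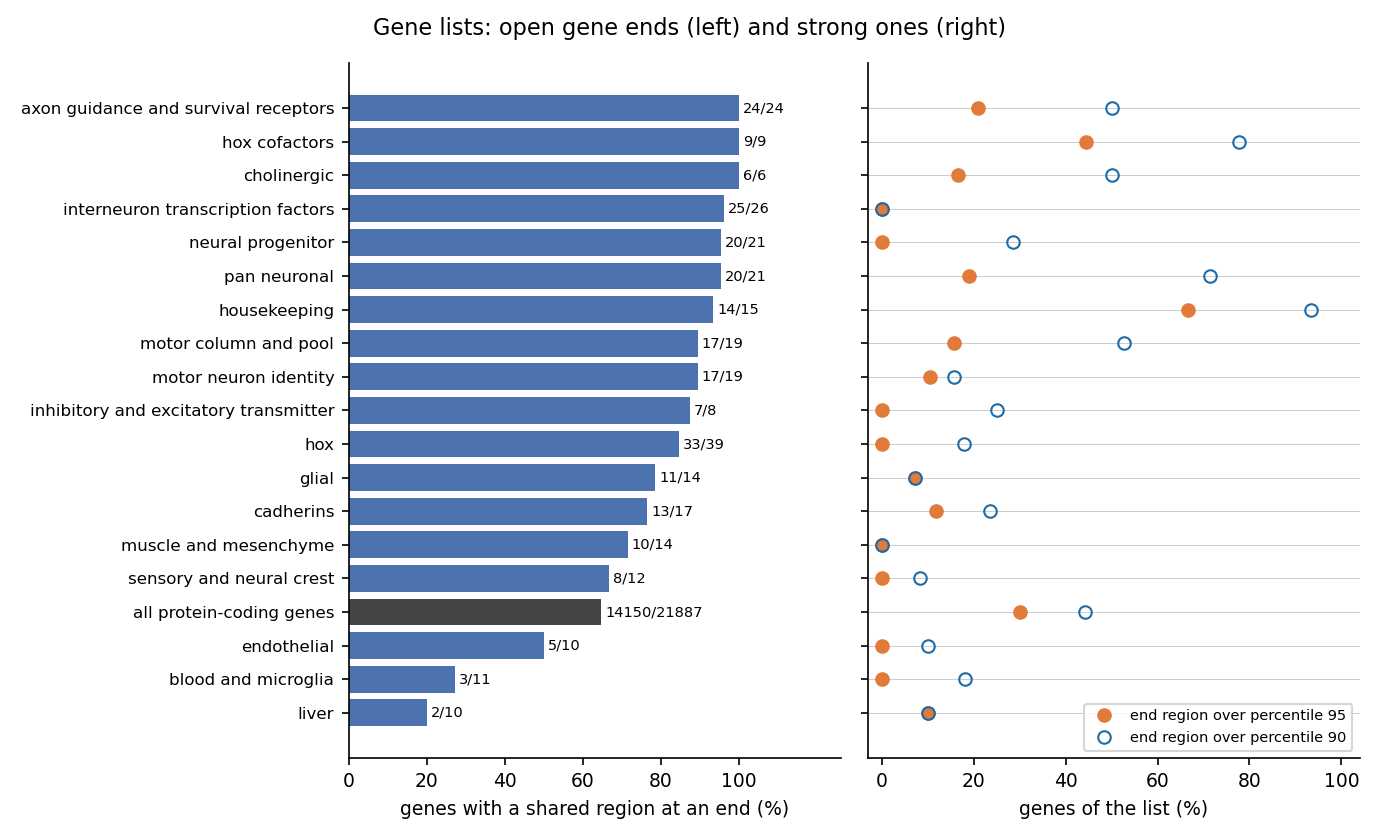
Left, percent of the genes of each list with a shared region within 1 kb of an end (count over list size beside each bar, all protein-coding genes in dark grey); right, percent of genes whose strongest end region exceeds percentile 90 (open) or 95 (filled). Housekeeping genes stand at 66.7% over percentile 95, interneuron factors at 0%, and all genes at 30.2%.

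Most genes of the neuronal lists had a shared region at an end, as did 64.7% of all protein-coding genes. The counts were 20 of 21 pan-neuronal genes (not Mapt), 24 of 24 axon guidance and survival receptors, 17 of 19 motor column and pool genes and 9 of 9 Hox cofactors. Median strengths of these ends were 92.0, 90.3, 91.0 and 94.8, beside 94.5 for all genes with an open end. Regions were most numerous at Celf4 (72), Rbfox3 (57) and Myt1l (49) among pan-neuronal genes, at Robo1 (85), Epha4 (59) and Robo2 (53) among receptors, and at Zfhx3 (90), Foxp1 (55) and Zeb2 (49) among column and pool genes. Foxp1 sets the lateral motor column, and Epha4 guides limb axons. The cofactors Meis1 (54) and Meis2 (45) bind DNA with Hox proteins. Of 17 cadherins, 13 had an open end, and Cdh13 (60), Cdh4 (46) and Cdh2 (38) had most regions. Cdh13 had no shared region at an end.

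Genes of other neural cells were open at their ends too, as were 64.7% of all protein-coding genes. Of 26 interneuron transcription factors, 25 had a shared region at an end (not Gata3), but none exceeded percentile 90 there, which 44.1% of all genes did, and the median strength was 68.6. Pax2 (33 regions), Lmx1b (26) and Lhx5 (20) had most regions. Progenitor genes were open in 20 of 21 cases (not Dbx1) at a median of 82.0, with Sox2 (57), Irx3 (29) and Hes1 (24) leading. Glial genes were open in 11 of 14, with Nfia (65), Nfib (35) and Zbtb20 (33) leading. Transmitter genes of other neurons were open in 7 of 8, with 12 regions at Slc17a6 and 10 at Slc6a5, and Slc17a8 had no shared region, although each control had a peak at an end of it. Sensory and neural crest genes were open in 8 of 12, with Tfap2a (19), Pou4f1 (16) and Tfap2b (15) leading, and Trpv1 had no shared region.

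The lists written for non-neural cells varied in their counts, beside 64.7% of all protein-coding genes with an open end. A gene in these lists, such as Pax7, need not be restricted to the cells its list is named for. Liver genes had an open end in 2 of 10 and blood and microglial genes in 3 of 11, with no shared region assigned to 4 genes of each list. The summed regions were 53 in control 1 and 50 in control 2 for liver, and 51 and 46 for blood. Most of these lay at Apob (29 shared) and Ptprc (23 shared), and the globin genes Hba-a1 and Hbb-bt, the erythroid Gata1 and Alas2, and the liver genes Fgb and Ahsg had no shared region. Endothelial genes were open in 5 of 10, with Cdh5 (16), Erg (12) and Kdr (9) leading and no shared region at Tie1. Muscle and mesenchyme genes were open in 10 of 14, with Pax7 (27), Col1a2 (9) and Meox1 (9) leading and no shared region at Actc1. Whether other cells were in the sorted samples was not tested. Housekeeping genes were open in 14 of 15 (not Ywhaz), 10 of them over percentile 95, as for Actb at 97.2. B2m and Rps18 had an open end that the nearest-gene rule gave to a neighbour.

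The printed windows belong to a wider pattern in base composition. Of 21263 RefSeq promoter windows (17492 genes), 12915, or 60.7%, were overlapped by a shared region. Among windows with a ratio of observed to expected CpG over 0.6, 96.2% were overlapped, and among the rest 28.4%. Windows in regions over percentile 95 had a median G+C of 63.0%, and windows with no control peak 47.0%. The GC box stood in 73.2% of the former and 11.3% of the latter, beside 46.2% of all windows. The ETS site stood in 23.4% and 2.50% (11.6% of all), the NRF1 motif GCGCATGC in 7.35% and 0.666% (3.52% of all), and the CCAAT box in 46.1% and 39.2% (38.2% of all). Motifs rich in A and T ran the other way: TATAAA in 4.72% and 23.2% (12.6% of all) and TAATTA, a homeodomain core, in 1.55% and 8.21% (4.53% of all). The strongest summit lay a median of 33 bp upstream of the start.

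Composition also differed between the gene lists. All 9 liver windows and all 9 blood and microglial windows had a CpG ratio of 0.6 or under, and none was overlapped. Of 14 pan-neuronal windows with so low a ratio, 12 were overlapped, at Dcx, Elavl2, Elavl4, Myt1l, Stmn3 and Syt1. All 6 such windows of the guidance receptors were overlapped, at Epha4, Gfra1, Nrp1 and Robo2, and 7 of 8 of the cadherins. The counts were 4 of 4 for progenitor genes, 5 of 7 for interneuron factors and 5 of 8 for transmitter genes of other neurons. They were 2 of 3 for motor neuron identity genes, 3 of 8 for muscle and mesenchyme genes and 2 of 6 for glial genes. None of 5 endothelial and none of 2 cholinergic windows was overlapped. Across all windows of so low a ratio, 28.4% were overlapped. Several windows can belong to 1 gene. Conversely, windows with a higher ratio but no shared region included those of the interneuron factors Barhl1, Evx2, Gata3, Sim1 and Sox14, 5 of 20 in that list. Other lists had such windows too. In the motor neuron identity list 11 of 14 windows with a higher ratio were overlapped, and windows of Ebf1 and Mecom were not. The overlapped counts were 9 of 12 for Hox genes and 12 of 15 for progenitor genes. They were 12 of 12 for pan-neuronal genes and 16 of 16 for guidance receptors. Across all promoter windows, 9748 of 10129 with a higher ratio were overlapped.

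Place in the genome followed strength. Gene ends made up 2.94% of the span and held 15061 regions, 18.7% of the total, at 190 regions per Mb, with a median width of 974 bp and 173 and 143 median tags. Gene bodies held 33617 (41.8%), space outside genes up to 100 kb held 21387 (26.6%) and space over 100 kb from any protein-coding gene held 10364 (12.9%), at 13.2 per Mb with 27 and 23 median tags. Measured from genes of every type in the annotation, the share over 100 kb away was 2.02%. The share at gene ends rose from 4.34% in the lowest 10 percentiles of strength to 53.3% at 90 to 95 and 88.4% at 99 to 100. The share over 100 kb from a protein-coding gene fell from 20.1% to 0.308%.

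**Figure D4:**
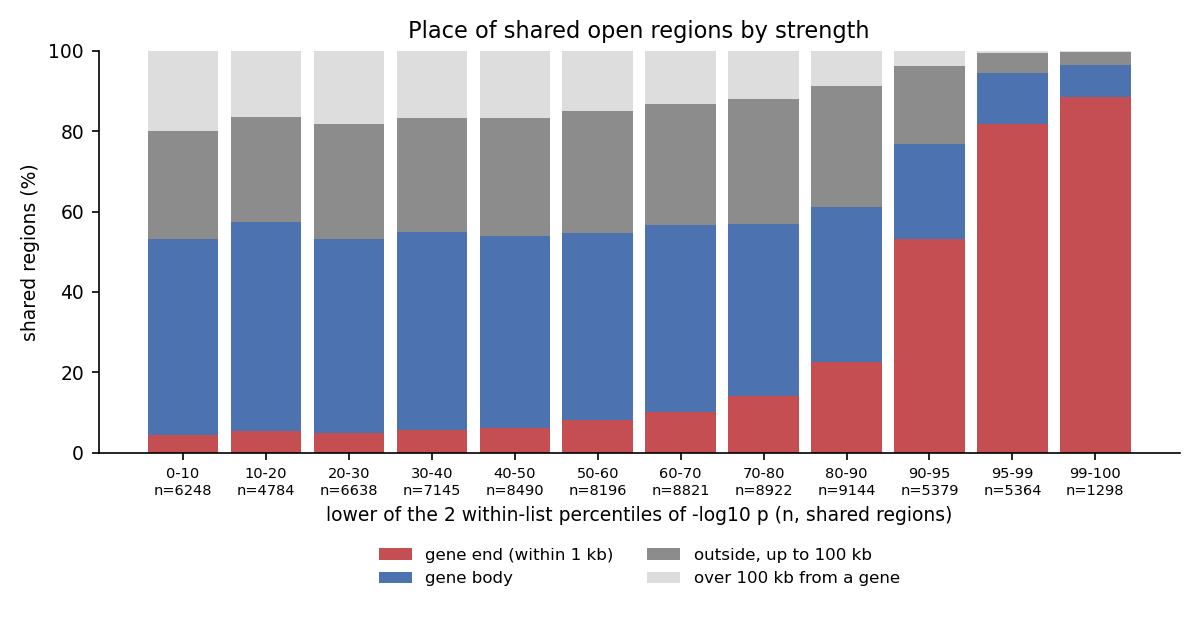
Percent of shared regions at gene ends, in gene bodies, outside genes up to 100 kb and over 100 kb from a protein-coding gene, in bins of strength (x axis, with the number of regions). The share at gene ends grows from 4.34% to 88.4%.

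The very strongest regions did not follow this trend. Only 4 of the 12 strongest lay at a gene end, beside 83 of the 100 strongest and 887 of the 1000 strongest. First stood a region of 276 bp, chr2:69355465-69355740, 13.0 kb from Abcb11, with 1478 tags in control 1 and 1906 tags in control 2 and fold 57.3 and 61.3. A region of 454 bp, chr5:60042707-60043160, lay 1766 kb from the nearest protein-coding gene, G6pd2, with 1238 and 1498 tags. A pair of regions inside Myo3a reached 2699 and 3534 tags and 2094 and 3055 tags, over a local background of 324 and 423 tags. The others away from gene ends lay nearest to Galc (1341 and 1625 tags), Myl12b (1467 and 677), Eea1 (732 and 1023) and Tyrp1 (752 and 994).

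The ratio of tags between the controls was more spread in narrow regions away from gene ends than at gene ends, among the strongest 100 regions. Among the 83 gene ends in the strongest 100 regions, the ratio of tags, control 2 over control 1, had a median of 0.922, with the 10% and 90% quantiles at 0.873 and 1.01. The 7 regions of 500 bp or less outside gene ends had these quantiles at 0.426 and 1.33. Their full range was 0.373 to 1.40, beside 0.440 to 1.13 at the 83 ends. In the strongest 1000 regions, the quantiles were 0.812 and 1.01 at gene ends and 0.816 and 1.05 at places of any width elsewhere. The gene end at Lars2, the mitochondrial leucyl-tRNA synthetase, was the exception among ends, with 1877 and 825 tags. Hjurp had 1173 and 1068 tags, Pja2 had 913 and 881, and Prmt5 had 834 and 785. Further down, the strongest ends included Lrch4 (881 and 805 tags), Stip1, a co-chaperone of heat shock proteins (885 and 867), and Gatad2b, of the NuRD complex (820 and 770). The origin of the high narrow regions was not tested.

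Width and summit number picked out other genes than strength. The median shared region was 531 bp wide (quartiles 347 and 831 bp), and 245 were over 2 kb, of which 75.9% lay at gene ends. The widest, 3302 bp at chr10:13964671-13967972 in Hivep2, a zinc finger factor, held 9 summits in each control with 206 and 185 tags. Next came Gm20783 (3112 bp), Tsc22d2 (2990 bp), Nol4l (2792 bp), Nsd1 (2736 bp), Dnmt3a (2723 bp), Mpped2 (2697 bp), Cpeb2 (2666 bp), Cited2 (2663 bp) and Klhl29 (2651 bp). Nsd1 methylates histone H3 at lysine 36, Dnmt3a methylates DNA de novo and Cited2 binds the co-activators CBP and p300. Their folds were moderate, from 4.93 at Nol4l to 10.1 at Klhl29 in control 1 and from 5.76 at Hivep2 to 10.6 at Klhl29 in control 2. Regions with most summits were at Fam155a (9 and 10) and Prkce (8 and 11), followed by Nsd1, Hivep2, Klf10, Tsc22d2, Klhl29, Cpeb2, Gpc5 and Psd2. Those near Gpc5 and Psd2 were 49.9 kb and 44.0 kb outside the gene.

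The genes with most regions were mainly long ones. Auts2 had 118 (166 in control 1 and 156 in control 2), Zfp608 had 105 (131 and 130), the adhesion protein Tenm3 had 94 (134 and 136) and the homeobox gene Zfhx3 had 90 (120 and 119). Next came Camta1 (88), the splicing factor Rbfox1 (87), the Slit receptor Robo1 (85), Nav2 (78), Gse1 (76), and, at 74 each, Agap1, Msi2, Nrxn3 and Tenm4. At Zfp608 only 18 of 105 lay in the body, the rest in the surrounding space. The counts tracked length: genes of 500 kb or more had a median of 24 regions, and genes under 10 kb a median of 1. Spearman's rho between length and body regions was 0.622 across 21887 genes. At least 1 region was assigned to 74.1% of genes, and 708 genes with 20 or more held 27.98% of all regions.

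**Figure D5:**
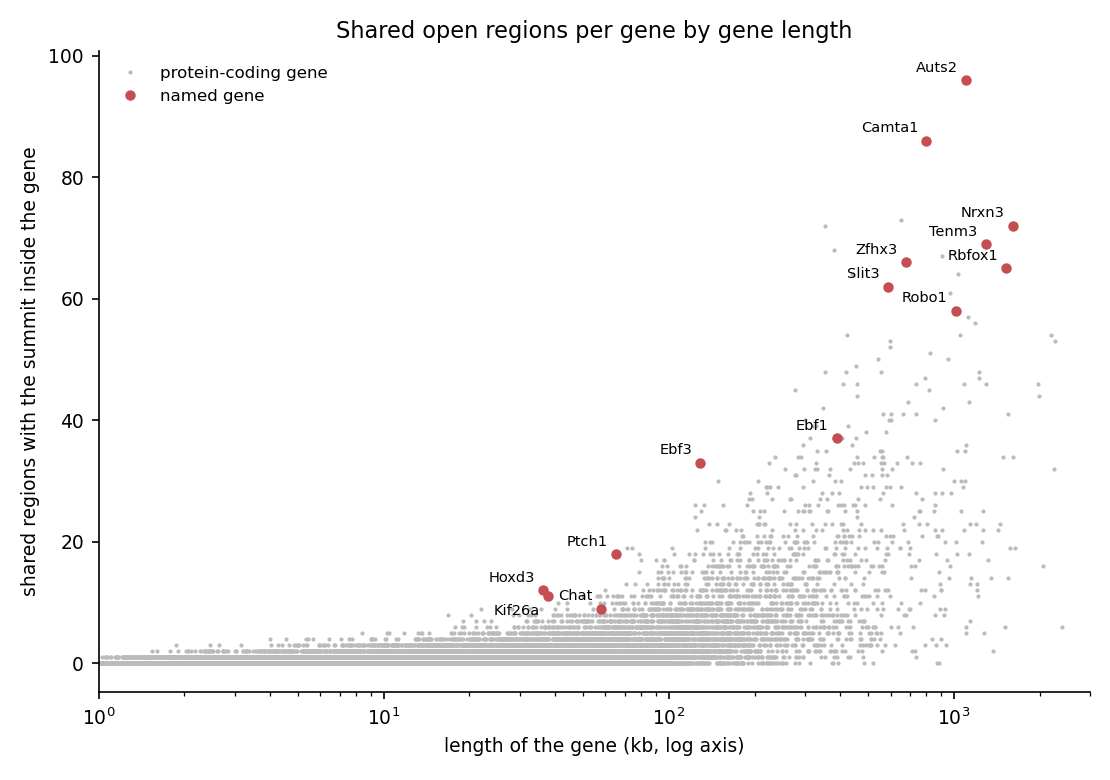
Number of shared regions with the summit inside each protein-coding gene (y axis) against gene length in kb (x axis, log scale), named genes in red. Auts2 holds 96 in its body and Camta1 86, while Hoxd3, Kif26a, Ptch1 and Ebf3 stand high for their length.

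Per length, the densest genes were shorter. Hoxd3 had 12 body regions in 36.3 kb (33.1 per 100 kb), Kif26a had 29.1 per 100 kb, the Hedgehog receptor Ptch1 27.6, Sfi1 26.6, Ccdc85c 25.6 and Ebf3 25.6. The Hox clusters, which pattern the body axis and assign motor neuron columns, were dense throughout. The Hoxa cluster held 25.6 regions per 100 kb, Hoxb 21.3, Hoxc 14.7 and Hoxd 24.8, covering from 10.2% to 17.1% of their bases against 1.87% of the whole span. Of 39 Hox genes, 33 had a region at an end, beside 64.7% of all protein-coding genes. None was over percentile 95, beside 30.2% of all protein-coding genes. Some neighbours were counted through the same region, as Hoxa5 with Hoxa6 and Hoxb7 with Hoxb8. Among group 5, which is expressed at cervical levels, Hoxa5 had 301 and 192 tags, Hoxb5 255 and 202, and Hoxc5 183 and 145. Hoxc4 (19), Hoxd3 (15) and Hoxa3 (11) had most regions, and Hoxa6, Hoxa11 and Hoxd12 had none assigned. The windows of 1 Mb with most regions were chr11:88000001-89000000 with Msi2 (133 regions) and chr11:96000001-97000000 with the Hoxb cluster (125), beside a median of 28.

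Regions also differed by position within genes and by gene family. Position was counted in 2478 genes of 50 kb or more, which were not all genes of that length. In them the first 10% of the body from the start held 17.3% of the body regions, and 34.7% of these exceeded percentile 90. Each further 10% of the body held from 8.44% to 10.2%, and in them 2.73% to 4.94% exceeded it. Of 1110 olfactory receptor genes, 7 had a shared region at an end, as did 3 of 355 vomeronasal receptors. The longest stretch without a shared region on the autosomes, chr7:19956843-24081571, holds 106 protein-coding genes, vomeronasal receptors among them. By contrast, 75 of 80 cytosolic ribosomal proteins, 62 of 67 clustered histones and 36 of 39 proteasome subunits had an open end, beside 64.7% of all protein-coding genes. The densest 100 kb, chr13:23500001-23600000 with 26 regions, is a histone cluster. Chromosome 11 had 44.0 regions per Mb and chromosome X had 8.41.

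Several microRNAs mark neurons, motor neurons or Hox clusters, and their mature sequences (RefSeq) are printed with the seed, bases 2 to 8, in capitals. The miRNAs of the 10 family share a seed, as do those of the 196 family.
mmu-miR-218-5p: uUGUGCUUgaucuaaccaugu
mmu-miR-9-5p: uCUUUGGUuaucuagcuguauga
mmu-miR-10a-5p: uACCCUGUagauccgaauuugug
mmu-miR-10b-5p: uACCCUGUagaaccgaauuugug
mmu-miR-196a-5p: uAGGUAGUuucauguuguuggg
mmu-miR-196b-5p: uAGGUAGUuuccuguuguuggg
Of 1005 hairpins, 136, or 13.5%, were overlapped by a shared region, and 688, or 68.5%, had one within 10 kb. The median distance of a hairpin to its nearest shared region was 4.52 kb. miR-9 is a regulator of neural development, and 2 of its 3 hairpins were overlapped. At Mir9-3 the region chr7:79504513-79505472 had 393 and 284 tags and a strength of 95.05. The region over Mir9-1 had 42 and 41 tags. The nearest region to Mir9-2 was 0.296 kb away, with 110 and 70 tags. miR-218, known for its high level in motor neurons, comes from Slit2 and Slit3. The nearest region was 16.7 kb from the Slit2 copy and 2.29 kb from the Slit3 copy, where 31 and 30 tags were found and 5 regions lay within 10 kb. In the Hox clusters, the region 0.782 kb from Mir10a had 282 and 205 tags, and that 0.96 kb from Mir10b had 100 and 67 tags. Near Mir196b, at 0.317 kb, there were 40 and 19 tags.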

How the data were processed

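ATAC-seq peak lists of the 2 control libraries were used; the Hoxa5-deficient lists entered only the total of regions in the series. Per the submitters' processing notes the tools were FastQC 0.11.9, Bowtie2 2.3.4.3, SAMtools 1.9 and MACS2 2.2.4, with the build mm10. The sources used here do not state peak-calling settings or any Tn5 shift. Each list has 10 columns without a header, in the form MACS2 writes. The authors deposited in them base positions, a score made from the p-value and capped at 1000, a fold ratio of the summit over background calculated per library, −log10 of the p-value and −log10 of the q-value. The authors' lists end at a −log10 p-value of 2.00, and 92.6% and 92.8% of deposited summits had a q-value under 0.05. Between 345 and 363 peak numbers are missing per list, so some peaks were absent from the deposited lists.

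Fold and p fix the whole-number tag pileup, which was recovered for 100% of summits within 0.001 on the −log10 scale; read depth itself is not stated. Fold, p and tags are each peak's own values, used within a list. Regions were merged and assigned, on assembled chromosomes, to the protein-coding gene holding the summit, otherwise the nearest (RefSeq, GRCm38.p6, 21887 genes). The promoter table holds 17492 of them. No list of regions to exclude was used. With 1 group of 2 libraries no test was made. The merging and the pileup recovery were tested on simulated data. Python 3.11.15, pandas 2.3.3, numpy 2.4.6 and scipy 1.17.1 were used.

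The members and the 18 gene lists (295 genes) were chosen with earlier results of these data known, and the microRNAs after their values were seen. Named genes followed a rule: the 4 markers; genes of the 12 strongest, 10 widest and 10 most-summit regions; the 10 genes with most regions and the 6 densest among those with 10 or more; all cholinergic and motor neuron identity genes; and per other list the 3 members with most regions, plus members with none where 3 or fewer have none. Other named genes were chosen after their values were seen. A few genes named by this rule are left out of the text. Alternatives changed the overlap, q-value, summit windows, list size, gene-end distance, gene types and ranking.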

Additional observations from a re-analysis of the deposited data

How the results depend on the processing

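No paired analysis was possible because only the control group was used and no result comes from a test. The number of shared regions (80429) stayed within 1.5 times under every alternative tried, from 54206 with a −log10 q of 5 or more to 115089 in the list of control 1 alone (110663 with summit windows of 100 bp on each side and 113505 in control 2 alone), and so did the 14150 genes and the 23 cholinergic and identity genes with an open end. The share at gene ends was 18.7%. It was 20.5% with a 50% overlap of both intervals, 25.3% at −log10 q of 5 or more, 26.2% with summit windows, 18.8% with equal list sizes, 28.9% with gene ends of 5 kb and 24.9% with genes of every type. In gene bodies and the body part of ends the share was 52.9%, or 57.1% with summit windows and 61.9% with all gene types. Over 100 kb from a protein-coding gene it was 12.9%, or 10.5% at −log10 q of 5 or more, 11.2% with summit windows and 2.02% from genes of all types. The median width of 531 bp became 672 bp at −log10 q of 5 or more and 221 bp with summit windows.

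With a single list in place of both, the share at gene ends was 14.8% in each control, the share inside genes 52.8% to 53.6%, the share over 100 kb away 13.5% to 14.6% and the median width 321 to 328 bp. Ranked by fold, 69.0% of the 100 strongest and 81.7% of the 1000 strongest regions lay at gene ends, beside 83.0% and 88.7% by −log10 p. Some named regions moved far under this ranking. The strength of the Slc18a3 region went from 81.4 to 57.5, and those of the Myo3a pair from 99.996 to 84.5 and from 99.990 to 78.0. The strongest Chat region went from 91.3 to 86.2, the Isl1 start from 87.6 to 88.8 and the Mnx1 start from 3.17 to 1.78. The first region, near Abcb11, kept its place. In the lowest 10 percentiles, 23.1% and 26.1% of regions were shared; the part of depth in this was not tested.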
